A study of Oryza sativa with 6 samples.

Results

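The genes described here, in RNA from rice roots, are the haemoglobin genes HB1 (Os03g0233900) and HB2 (Os03g0226200) on chromosome 3, the alcohol dehydrogenase genes ADH1 (Os11g0210300) and ADH2 (Os11g0210500) on chromosome 11, and the pyruvate decarboxylase genes PDC1 (Os05g0469600, chromosome 5) and PDC2 (Os03g0293500, chromosome 3). These 6 genes were taken by locus from a table of 36960 features. All 6 loci were found under these names, and all 6 held enough counts to be tested. The libraries came from roots of 3 samples of the line mads61-3, a mutant of the MADS-box transcription factor gene OsMADS61, and of 3 wild-type (WT) samples. Both groups grew with nitrate at 2.5 mM in IRRI nutrient solution, without a fungal partner and with several seedlings to a tank. The sources used here do not give the nature of the allele, the cultivar or the age of the plants, and the mutant group is 1 line. The comparison asks how OsMADS61 bears on nitrate transport in roots.

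Plant haemoglobins of the type encoded by HB1 and HB2 are not oxygen carriers of the nodule kind. They bind oxygen very tightly and turn nitric oxide into nitrate, and their genes are known in several plants to respond to nitrate and to low oxygen. When oxygen runs short in roots, pyruvate decarboxylase turns pyruvate into acetaldehyde and alcohol dehydrogenase reduces acetaldehyde to ethanol, which returns the NAD+ that glycolysis needs. Rice roots, which grow in flooded soil, are known for strong use of this route.

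Library totals ran from 27060698 to 34179150 counts in mads61-3 and from 24145708 to 27338562 in WT. The root markers RCc3, LSI1 and LSI2 were above 0 in every library and summed to 1937 to 3855 FPKM (fragments scaled to feature length and library depth, as deposited) in mads61-3 and to 1110 to 1580 FPKM in WT. They did not move together: RCc3 ran from 60.98 to 96.3 FPKM in mads61-3 and from 27.3 to 1081 FPKM in WT, with a log2 fold change of -2.56, against 1.45 for LSI1 and 1.70 for LSI2 (edgeR adjusted p = 0.294, 0.24 and 0.264). Of 6 leaf markers, which should be low in roots, the summed level was 15.5, 186 and 66.6 FPKM in mads61-3 replicates 1 to 3 and 1.22, 19.5 and 4.89 FPKM in WT replicates 1 to 3, with 1 marker at 0 in WT replicate 1 and 2 at 0 in WT replicate 3. OsMADS61 itself (Os04g0461300) stood at 6.24, 2.41 and 4.63 CPM (counts scaled to library depth, with TMM library sizes) in mads61-3 replicates 1 to 3, and at 552, 573 and 2.38 CPM in the libraries labelled WT replicates 1 to 3. The library labelled WT replicate 3 thus had as little OsMADS61 RNA as the mutants, and the results of the 6 genes are also given without it. Directions count it as WT, as labelled. The Spearman correlation between WT replicates 1 and 3 was 0.8825, the lowest of all library pairs. WT replicate 3 correlated at 0.9514 with WT replicate 2 and at 0.9222 with mads61-3 replicate 2.

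Both haemoglobin genes fell in mads61-3 roots, where mean CPM was 291-fold below WT for HB1 and 48.9-fold below WT for HB2. Beside them, ADH1 and PDC2 lay lower in every mads61-3 library than in any WT library but missed the threshold. ADH2 and PDC1, the more abundant copies of their pairs by group mean, overlapped between the groups. Of the 6 genes 2 were called lower and 0 higher, where edgeR called 0.924% of 25531 tested genes lower and 0.325% higher (adjusted p under 0.05). By the unadjusted edgeR p, 4 of the 6 were under 0.05 and lower and 0 higher, against 8.68% and 7.86% of tested genes. DESeq2 called 4 of the 6 lower (5.37% of tested genes) and limma-voom called 2 (0.721% of tested genes). All mads61-3 libraries lay below all WT libraries for 4 of the 6 genes, and for 0 of them above, against 11.3% and 11.4% of tested genes. Their median log2 fold change was -1.55, beside -0.04 over all tested genes.

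**Figure D1:**
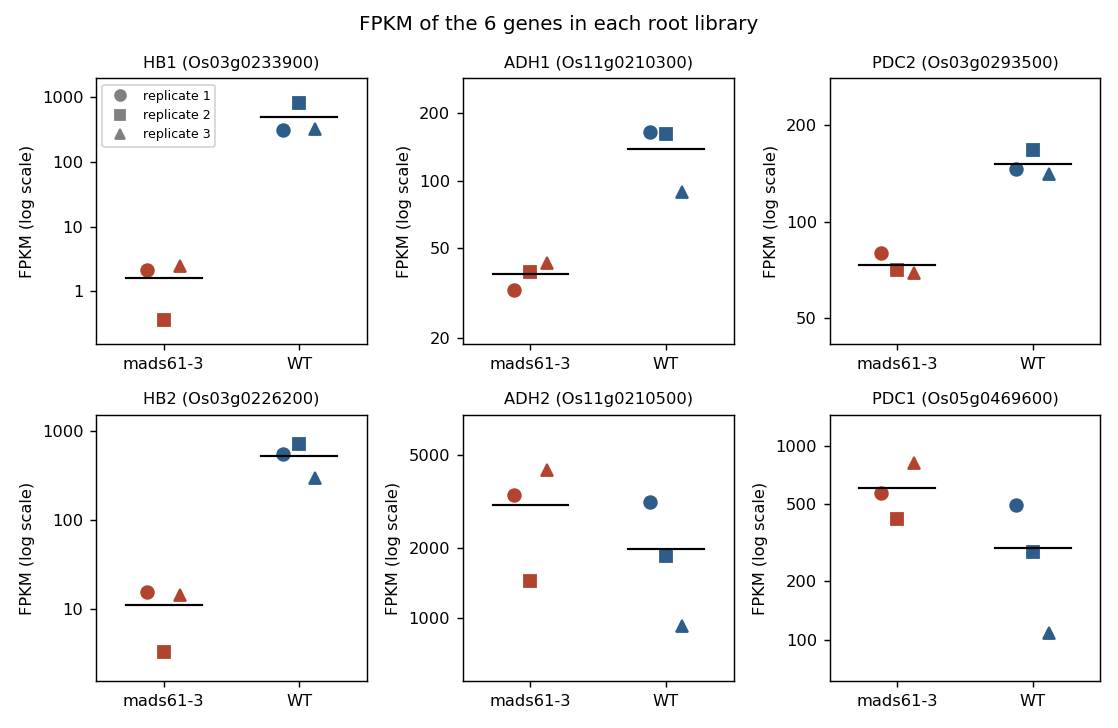
Deposited FPKM (log axis) of the 6 genes in each library, mads61-3 on the left and WT on the right of each panel, with a marker shape for each replicate and a line at the group mean. HB1, HB2, ADH1 and PDC2 do not overlap between groups, while ADH2 and PDC1 do.

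HB1 had 62, 9 and 59 read counts in mads61-3 replicates 1 to 3, against 7157, 16818 and 7445 in WT replicates 1 to 3. Scaled to length and depth these were 2.11, 0.363 and 2.44 FPKM in mads61-3, against 313, 814 and 317 FPKM in WT. The groups lay far apart, and the lowest WT library still held 122 times the CPM of the highest mads61-3 library. The mean was 1.42 ± 0.992 CPM in mads61-3 and 415 ± 219 CPM in WT (SD, n = 3 each). Its log2 fold change was -8.18 (SE 0.88, 95% interval -10.28 to -6.09, edgeR adjusted p = 0.0176). Among all FPKM values of a library HB1 ranked 18434, 24878 and 17525 from the top in mads61-3 replicates 1 to 3, and 165, 39 and 259 in WT replicates 1 to 3. It was thus among the most abundant transcripts of WT roots, and in the mutants it lay near the middle of the table in replicates 1 and 3 and lower in replicate 2. Its log2 fold change was the 27th lowest of 25531 and stood 20th among the 236 called falls.

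HB2 had 15.7, 3.27 and 14.4 FPKM in mads61-3 replicates 1 to 3, against 554, 718 and 299.9 FPKM in WT replicates 1 to 3. All mads61-3 libraries lay below all WT libraries, by 18.8-fold in CPM between the nearest of them. The mean was 9.24 ± 5.90 CPM in mads61-3 and 452 ± 181 CPM in WT (SD, n = 3 each). Its log2 fold change was -5.61 (SE 0.76, 95% interval -7.42 to -3.80, edgeR adjusted p = 0.0302). Both haemoglobin genes were lowest in mads61-3 replicate 2, which is also the library with the highest summed leaf markers, and the part of that library's makeup in the result was not tested. Without that library alone the log2 fold changes were -7.70 for HB1 and -5.16 for HB2, with edgeR adjusted p of 0.0513 and 0.0517 (0.0191% of tested genes called lower in that fit). In bulk roots, fewer cells of a type that holds these transcripts and fewer transcripts per cell cannot be told apart.

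In the library labelled WT replicate 3, where OsMADS61 stood at 2.38 CPM, HB1 had 265 CPM and HB2 had 244 CPM. Both haemoglobin genes there were on the side of the other WT libraries (313 and 666 CPM for HB1, 540.02 and 572 CPM for HB2), unlike OsMADS61. Both calls held when it was left out, at -8.43 for HB1 (edgeR adjusted p = 0.0128) and -5.91 for HB2 (edgeR adjusted p = 0.0195), in a fit that called 2.02% of tested genes lower. They also held without that library and mads61-3 replicate 2 together (-7.96 and -5.47, edgeR adjusted p = 0.0413 for both, with 0.803% of tested genes called lower). Without WT replicate 2, the library with the most HB1 and HB2, HB1 remained called (-7.66, edgeR adjusted p = 0.0374) and HB2 did not (-5.40, edgeR adjusted p = 0.0691), with 0.381% of tested genes called lower. Without mads61-3 replicate 1 or 3 neither gene passed (edgeR adjusted p = 0.138 and 0.11 for HB1, 0.16 and 0.152 for HB2), and in those fits no gene of the table did.

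HB1 and HB2 are similar genes, and how the counting split reads between them is not known. With their counts summed into 1 feature the fall remained, with a log2 fold change of -6.34 (edgeR adjusted p = 0.025). The balance between the copies also differed. HB1 made up 11.8%, 9.99% and 14.5% of the summed FPKM of the pair in mads61-3 replicates 1 to 3, against 36.1%, 53.1% and 51.4% in WT replicates 1 to 3. The groups do not overlap, and log2 of the ratio of HB1 to HB2 averaged -2.74 ± 0.20 in mads61-3 and -0.19 ± 0.55 in WT (SD, n = 3 each), a difference of -2.55. The exact permutation test over the libraries, two-sided, gave p = 0.1, the smallest p that 3 against 3 libraries allow. With WT replicate 3 left out the difference was -2.42.

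**Figure D2:**
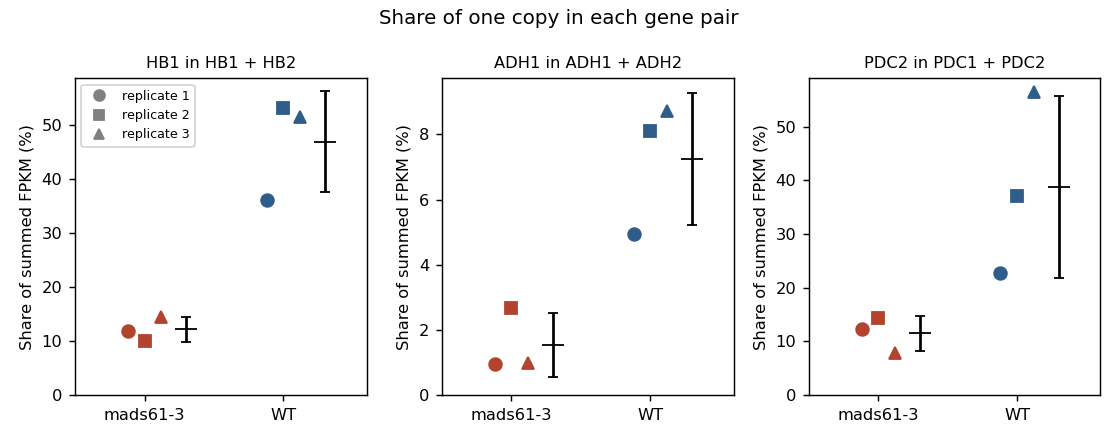
Share of the summed FPKM of a pair (percent, axis from 0) that came from HB1, ADH1 and PDC2 in each library, mads61-3 left of WT, with a marker shape for each replicate and the group mean ± SD beside the points (n = 3 each). In each panel every mads61-3 library lies below every WT library.

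The next haemoglobin gene by abundance in WT was HB4 (Os03g0234100, listed as OsHB4). In mads61-3 HB4 was the most abundant of the haemoglobin genes named here, with a mean of 45.2 FPKM against 11.1 for HB2 and 1.64 for HB1. It stood at 120.5, 139.9 and 114 CPM in mads61-3 replicates 1 to 3, against 159, 166 and 115 CPM in WT replicates 1 to 3. Its groups overlapped, with a log2 fold change of -0.23 (95% interval -0.77 to 0.32, edgeR adjusted p = 0.681). That interval does not reach those of HB1 and HB2, and the difference between the genes was not tested. HB3 (Os03g0234000) had 0 counts in all 3 mads61-3 libraries and in WT replicate 1, against 93 and 217 counts in WT replicates 2 and 3. With all libraries it did not pass the filter on low counts. With all libraries and no filter its edgeR adjusted p was 0.195, and its groups overlapped at 0. Without WT replicate 1, the only WT library at 0, HB3 was tested and called lower (-10.37, edgeR adjusted p = 0.0307, 1.65% of tested genes called lower). With 0 counts in mads61-3 the size of that fall is loosely fixed. HB5 (Os05g0517600, listed as OsHB5, added to the list after the names in the table were read) had 0 counts in all mads61-3 libraries, against 29, 54 and 7 counts in WT replicates 1 to 3. With 3 counts per library as the floor, the WT mean of HB5 (1.22 CPM) was 12.3-fold the mean floor of mads61-3 (0.0989 CPM). In WT replicate 3 HB5 had 0.249 CPM, where 3 counts stood for 0.107 CPM. HB5 too was below the filter on low counts, and without that filter its edgeR adjusted p was 0.0985.

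ADH1 had 32.6, 39.4 and 43.1 FPKM in mads61-3 replicates 1 to 3, against 164, 162 and 89.0 FPKM in WT replicates 1 to 3. The groups did not overlap, and the spread was wider in WT, where WT replicate 3 was the lowest library. The mean was 74.6 ± 12.6 CPM in mads61-3 and 289 ± 107 CPM in WT (SD, n = 3 each). The log2 fold change of ADH1 was -1.96 (SE 0.34, 95% interval -2.77 to -1.14) and just missed the threshold (edgeR adjusted p = 0.0538). ADH1 passed with WT replicate 3 left out, at -2.22 (edgeR adjusted p = 0.0151), and with WT replicate 1 left out, at -1.70 (edgeR adjusted p = 0.049, 1.65% of tested genes called lower). DESeq2 called it on all libraries (-1.94, adjusted p = 2.7e-06), and limma on FPKM did so too, both with a pseudocount of 1 (adjusted p = 0.0305, 1.25% of tested genes called lower) and of 0.1 (adjusted p = 0.0289, 1.48%). Total-count scaling and edgeR without robust estimation, which each called 1.08% of tested genes lower, gave edgeR adjusted p of 0.039 and 0.0484 for ADH1. Over all alternatives on ADH1 alone the adjusted p was at most 0.246.

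ADH2 was the opposite case in level and in pattern. It had 3391, 1446 and 4301 FPKM in mads61-3 replicates 1 to 3, against 3156, 1841 and 930.3 FPKM in WT replicates 1 to 3. These values put it 6th, 17th and 5th of all features in mads61-3 replicates 1 to 3 and 7th, 8th and 31st in WT replicates 1 to 3. ADH2 alone took 0.575%, 0.234% and 0.73% of all counts in mads61-3 and 0.507%, 0.315% and 0.152% in WT. The groups overlapped widely, with a 3.62-fold range within mads61-3 and a 4.01-fold range within WT. The log2 fold change was 0.56 (SE 0.67, 95% interval -1.02 to 2.15, edgeR adjusted p = 0.735), and ran from 0.18 without mads61-3 replicate 3 to 1.199 without WT replicate 1 (edgeR adjusted p = 0.973 and 0.261). With WT replicate 3 left out it was 0.20 (edgeR adjusted p = 0.913).

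ADH1 made up only a small part of the pair, and as with the haemoglobins it is not known how reads were divided between the copies. Its share of the summed FPKM was 0.952%, 2.66% and 0.993% in mads61-3 replicates 1 to 3, against 4.95%, 8.09% and 8.73% in WT replicates 1 to 3. The groups do not overlap, with log2 of the ratio of ADH1 to ADH2 at -6.18 ± 0.85 in mads61-3 and -3.72 ± 0.48 in WT (SD, n = 3 each) and a difference of -2.46 (exact permutation test, two-sided, p = 0.1, the smallest possible). With WT replicate 3 left out the difference was -2.29 (exact permutation test, p = 0.2). Without WT replicate 2 the exact permutation test also gave p = 0.2. Because ADH2 outweighs ADH1, the summed counts of the pair followed ADH2, with a log2 fold change of 0.47 (edgeR adjusted p = 0.78). Another alcohol dehydrogenase gene, ADH3 (Os11g0210600, listed as Adh3, added after the names in the table were read), has the next locus number after ADH2. It stood at 5.27, 4.72 and 6.94 FPKM in mads61-3 replicates 1 to 3, against 3.66, 3.45 and 0.825 FPKM in WT replicates 1 to 3, far under both other copies. Its log2 fold change of 0.98 did not pass (95% interval -0.41 to 2.37, edgeR adjusted p = 0.465).

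PDC2 showed the tightest replicates of the 6 genes. It had 79.8, 70.5 and 69.3 FPKM in mads61-3 replicates 1 to 3, against 146, 167 and 141 FPKM in WT replicates 1 to 3. The highest and lowest library of a group differed by 1.25-fold in mads61-3 and 1.24-fold in WT, and the groups did not overlap. The mean was 164 ± 18.1 CPM in mads61-3 and 361 ± 39.5 CPM in WT (SD, n = 3 each). PDC2 had a log2 fold change of -1.14 (SE 0.23, 95% interval -1.68 to -0.59), which missed the threshold (edgeR adjusted p = 0.0674). DESeq2 called it (-1.13, adjusted p = 1.3e-06), and edgeR did so when WT replicate 3 was left out (-1.22, adjusted p = 0.0488). EdgeR did not call it without any other single library, where the adjusted p ran from 0.0532 without WT replicate 1 to 0.316 without mads61-3 replicate 3.

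PDC1 had 575, 421 and 817 FPKM in mads61-3 replicates 1 to 3, against 496, 285 and 108 FPKM in WT replicates 1 to 3. WT replicate 1 lay within the range of the mutants, and WT replicate 3 lay far below all other libraries. The mean was 1405 ± 550.2 CPM in mads61-3 and 755 ± 569 CPM in WT (SD, n = 3 each). Its log2 fold change was 0.90 (SE 0.63, 95% interval -0.61 to 2.40, edgeR adjusted p = 0.541). Single libraries moved this value: it was 1.66 with WT replicate 1 left out (edgeR adjusted p = 0.116) and 0.48 with WT replicate 3 left out (edgeR adjusted p = 0.676). PDC2 gave 12.2%, 14.3% and 7.82% of the summed FPKM of the pair in mads61-3 replicates 1 to 3, against 22.8%, 37.0% and 56.6% in WT replicates 1 to 3. Log2 of the ratio of PDC2 to PDC1 was -2.99 ± 0.51 in mads61-3 and -0.72 ± 1.07 in WT (SD, n = 3 each), a difference of -2.28 with no overlap (exact permutation test, two-sided, p = 0.1, the smallest possible). The difference was -1.73 with WT replicate 3 left out (exact permutation test, p = 0.1). Without any 1 mads61-3 library the exact permutation test gave p = 0.2. The summed counts of both genes had a log2 fold change of 0.49 (edgeR adjusted p = 0.684).

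The order of the 6 genes by length-scaled level differed between groups. In mads61-3 roots mean FPKM ran from ADH2 (3046 ± 1458) over PDC1 (604 ± 199.8), PDC2 (73.2 ± 5.75), ADH1 (38.4 ± 5.35) and HB2 (11.1 ± 6.84) down to HB1 (1.64 ± 1.12), and no neighbours in this order overlapped between their libraries. In WT roots it ran from ADH2 (1976 ± 1119) over HB2 (524 ± 211), HB1 (481 ± 288), PDC1 (296 ± 194) and PDC2 (152 ± 13.9) to ADH1 (138 ± 42.8). There, every pair of neighbours after ADH2 overlapped, so their order is not fixed by these samples.

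ADH2 and PDC1 had nearly the same order of libraries, one that did not follow the groups. Both were highest in mads61-3 replicate 3 (7570 and 1985 CPM), stood close together in mads61-3 replicate 1 (5731 and 1341 CPM) and WT replicate 1 (5938 and 1371 CPM), and were lowest in WT replicate 3 (1480 and 249 CPM). The libraries between were mads61-3 replicate 2 (2092 and 890.2 CPM) and WT replicate 2 (3011 and 643 CPM), with ADH2 higher in the second of these and PDC1 higher in the first. All 6 genes together took 0.736%, 0.358% and 0.947% of all counts in mads61-3 replicates 1 to 3 and 0.763%, 0.583% and 0.281% in WT replicates 1 to 3, most of it ADH2.

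**Figure D3:**
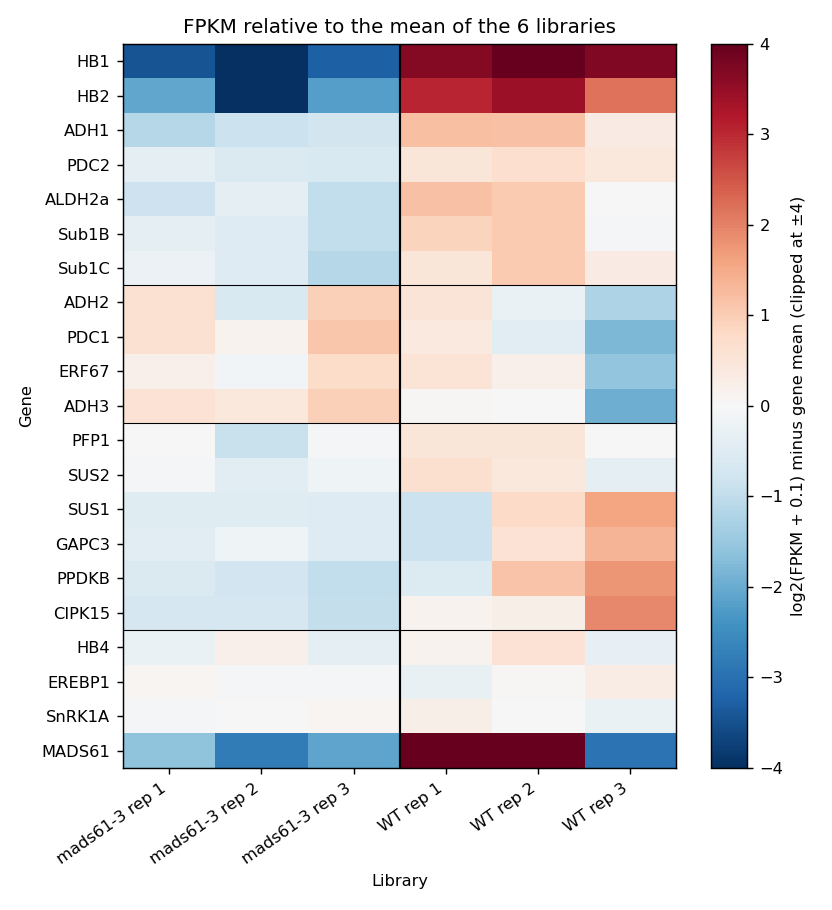
Log2(FPKM + 0.1) of the 6 genes, some pathway genes and OsMADS61 in each library, as the difference from the gene's mean over the 6 libraries (colour clipped at 4 log2 units to either side), mads61-3 left of WT. Rows were arranged by pattern after their values were seen: HB1 to Sub1C are lower in mads61-3, ADH2 to ADH3 are lowest in WT replicate 3, and SUS1, GAPC3, PPDKB and CIPK15 are highest in WT replicate 3.

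Of 34 other genes listed for haemoglobins, fermentation, sucrose breakdown, glycolysis, alternative oxidases, low-oxygen regulators, starch breakdown and nitric oxide handling, 28 carried the listed name or a known synonym in the table and 24 were tested. EdgeR called 0 of the 24 in either direction, beside 1.25% of all tested genes. Limma-voom called 0 in either direction, where it called 0.721% of all tested genes lower. DESeq2 called 5 lower, where it called 5.37% of all tested genes lower. By the unadjusted edgeR p, 5 of the 24 (20.8%) were under 0.05 and lower and 0 higher, beside 8.68% and 7.86% of all tested genes. All mads61-3 libraries lay below all WT libraries for 5 as well (20.8%), beside 11.3% of all tested genes. The median of the 24 was -0.41, with 17 negative and 7 positive values.

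Among the fermentation genes, ALDH2a, a mitochondrial aldehyde dehydrogenase that oxidises acetaldehyde, had 11.05, 13.0 and 10.2 CPM in mads61-3 replicates 1 to 3, against 49.9, 37.3 and 17.9 CPM in WT replicates 1 to 3. It did not overlap between groups, with a log2 fold change of -1.62 (95% interval -2.53 to -0.71, edgeR adjusted p = 0.101), and edgeR called it when WT replicate 3 was left out (-1.93, adjusted p = 0.0188). Its more abundant relative ALDH2b (listed as OsALDH2B1) had a log2 fold change of 0.33 (95% interval -0.15 to 0.81, edgeR adjusted p = 0.476). PDC3, the other pyruvate decarboxylase gene on the list, was close to silent, with 17, 0 and 18 counts in mads61-3 replicates 1 to 3 and 0, 2 and 53 in WT replicates 1 to 3 (log2 fold change -0.78, 95% interval -4.68 to 3.12, edgeR adjusted p = 0.861).

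Sucrose synthases split sucrose for glycolysis and save ATP when oxygen is short. SUS1 had 347, 346 and 340.04 FPKM in mads61-3 replicates 1 to 3, against 266, 826 and 1442 FPKM in WT replicates 1 to 3. The mutants were alike and fell within the wide WT range (log2 fold change -1.27, 95% interval -2.60 to 0.05, edgeR adjusted p = 0.318). SUS2 had a log2 fold change of -0.63 (95% interval -1.58 to 0.33, edgeR adjusted p = 0.5). In glycolysis, GAPC3 (Os04g0486600, listed as GAPDH) had 366, 428 and 339 FPKM in mads61-3 and 270.2, 724 and 1255 FPKM in WT (log2 -1.03, edgeR adjusted p = 0.353), the same order of libraries in WT as SUS1. Another locus, Os08g0126300, is listed as OsGapC3 and was left out because its listed name differed. PFP1 (listed as OsPFPB), a subunit of the pyrophosphate-dependent phosphofructokinase, stood at -0.62 (edgeR adjusted p = 0.505). PPDKB (listed as flo4), a pyruvate orthophosphate dikinase, was at -1.87 (95% interval -3.07 to -0.67, edgeR adjusted p = 0.134), and passed without WT replicate 1 (-2.26, edgeR adjusted p = 0.0225).

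Of 7 low-oxygen regulators, 3 lay below all WT libraries (42.9%, beside 11.3% of all tested genes). Sub1B and Sub1C, ERF factors of the submergence locus, had log2 fold changes of -1.41 and -1.35 (edgeR adjusted p = 0.11 and 0.0924), and CIPK15, a kinase of sugar and oxygen signalling, had -1.93 (edgeR adjusted p = 0.125). CIPK15 stood at 4.31, 4.06 and 3.56 CPM in mads61-3 replicates 1 to 3, against 9.50, 8.28 and 27.6 CPM in WT replicates 1 to 3, so that the library labelled WT replicate 3 was far above the other WT libraries. These 3 genes were named after their values were seen. With WT replicate 3 left out, edgeR called Sub1B (-1.70, adjusted p = 0.0214). The more abundant ERF factors overlapped between groups, with EREBP1 at -0.14 (95% interval -0.66 to 0.38, edgeR adjusted p = 0.807) and ERF67 at 0.23 (95% interval -1.13 to 1.58, edgeR adjusted p = 0.885). ERF67 had 106, 86.9 and 153 FPKM in mads61-3 replicates 1 to 3 and 135, 106.5 and 31.3 FPKM in WT replicates 1 to 3, so that its highest and lowest FPKM were in the same libraries as those of ADH2 and PDC1. The alternative oxidases AOX1a and AOX1b were at 0.61 and 1.10 (edgeR adjusted p = 0.676 and 0.509), NOA1, linked to nitric oxide in plants, was at -0.12 (95% interval -0.80 to 0.57, edgeR adjusted p = 0.882), and the amylase gene RAmy1A had 4 counts in WT replicate 3 and 0 elsewhere.

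**Figure D4:**
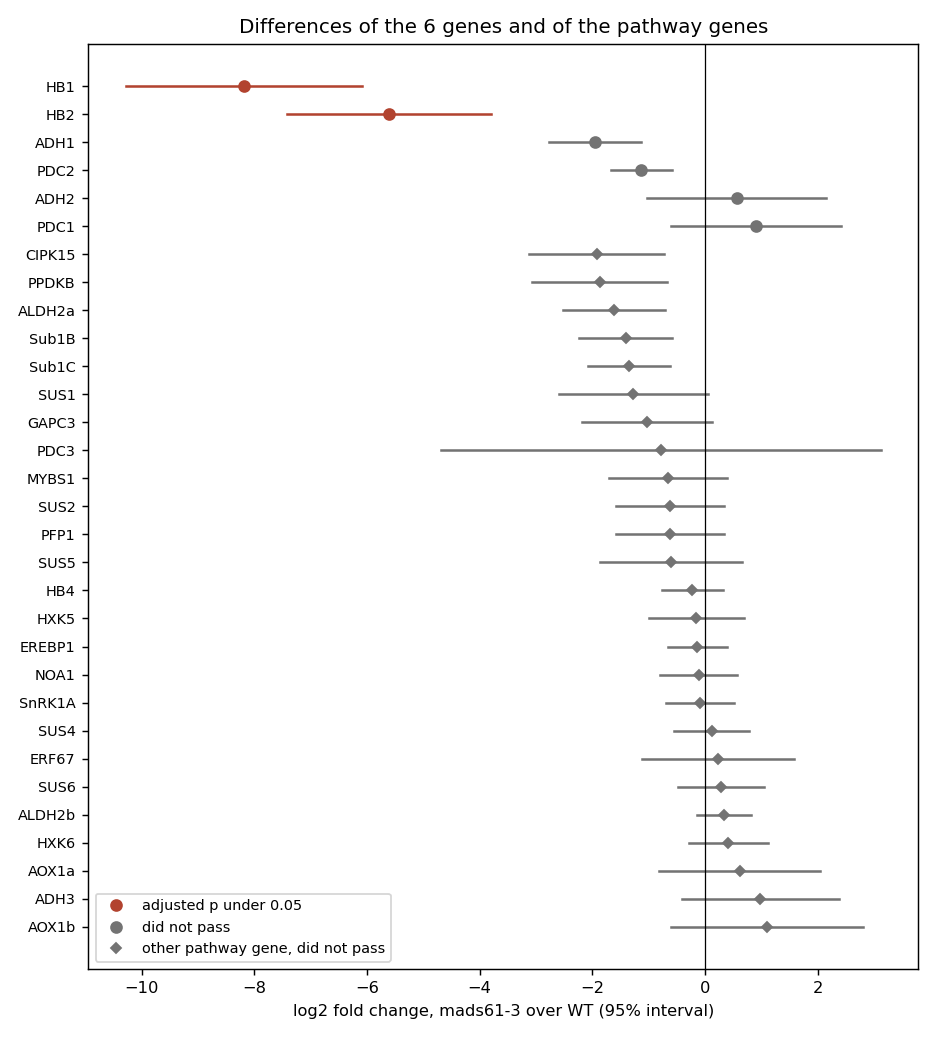
Log2 fold changes of mads61-3 over WT with 95% intervals for the 6 genes (circles) and the other tested pathway genes (diamonds), red where the edgeR adjusted p was under 0.05. HB1 and HB2 pass the test, ADH1 and PDC2 have intervals below 0 without passing, and ADH2 and PDC1 have intervals that include 0.

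Nitrate reduction genes were set beside the haemoglobins because nitrate reductase is a known source of nitric oxide in plants. NiR, nitrite reductase, had 14.6, 22.5 and 18.7 FPKM in mads61-3 replicates 1 to 3, against 678, 531 and 294 FPKM in WT replicates 1 to 3 (log2 -4.74, edgeR adjusted p = 0.0148). All 4 nitrate reduction genes tested lay below WT in every mads61-3 library, beside 11.3% of all tested genes. Of the 4, 2 were called lower, beside 0.924% of all tested genes. Of the nitrate reductase genes, OsNR1 was at -2.71 (edgeR adjusted p = 0.0825). OsNIA2 was at -2.95 (edgeR adjusted p = 0.0579). OsNIA1 fell, with 2, 3 and 0 counts in mads61-3 replicates 1 to 3 against 3274, 2909 and 951 counts in WT replicates 1 to 3 (edgeR adjusted p = 0.0146). OsNIA1 and OsNIA2 were named after their values were seen. The 95% interval of NiR (-5.87 to -3.61) overlaps that of HB2 (-7.42 to -3.80) and does not reach that of HB1 (-10.28 to -6.09). The differences between these genes were not tested.

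The genes whose log2 CPM were most like those of a member over the 6 libraries were sought among 6852 genes that carry a name and average 1 CPM or more. The measure was Pearson's r, which over so few libraries mostly follows the gap between the groups, and values above 0.95 were found for 68 genes with HB1, 81 with HB2 and 136 with ADH1. HB1 was most like NRT2.2 (r = 0.999), OsSigP5 (0.992), NRT2.1 (0.991), OsGLYI6 (0.99) and Os11gRGA3 (0.989). NRT2.1 and NRT2.2, high-affinity nitrate transporters, had log2 fold changes of -8.20 and -7.63 (edgeR adjusted p = 0.0148 and 0.0176). In mads61-3 they were near the floor, at 0 to 0.146 CPM for NRT2.1 and 0 to 0.184 CPM for NRT2.2. In WT they held 13.98 to 30.2 and 13.95 to 33.7 CPM, so the size of their falls is loosely fixed. Genes picked by r tend to share the gap of the member, so their falls are no separate support. OsSigP5 shows how little r says of size: its log2 fold change was -0.24 (edgeR adjusted p = 0.529).

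HB2 was most like ZFP (Os03g0820400, r = 0.995), the alanine aminotransferase gene ALAAT (0.993), NRT2.2 (0.992), the coproporphyrinogen oxidase gene CPO (0.992) and the calmodulin-like gene OsCML14 (0.989). ALAAT had 219.5, 124 and 211 CPM in mads61-3 replicates 1 to 3, against 753, 752 and 455 CPM in WT replicates 1 to 3 (log2 -1.82, edgeR adjusted p = 0.0642). ADH1 was most like OsACTPK3 (r = 0.998), CYP97B4 (0.997), OsBBX24 (0.994), the glucose-6-phosphate dehydrogenase gene OsG6PDH3 (0.993) and the polyamine oxidase gene PAO5 (0.993). OsG6PDH3 fell, at 113, 94.4 and 129.8 CPM in mads61-3 replicates 1 to 3 against 1044, 723 and 386 CPM in WT replicates 1 to 3 (log2 -2.67, edgeR adjusted p = 0.0416).

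**Figure D5:**
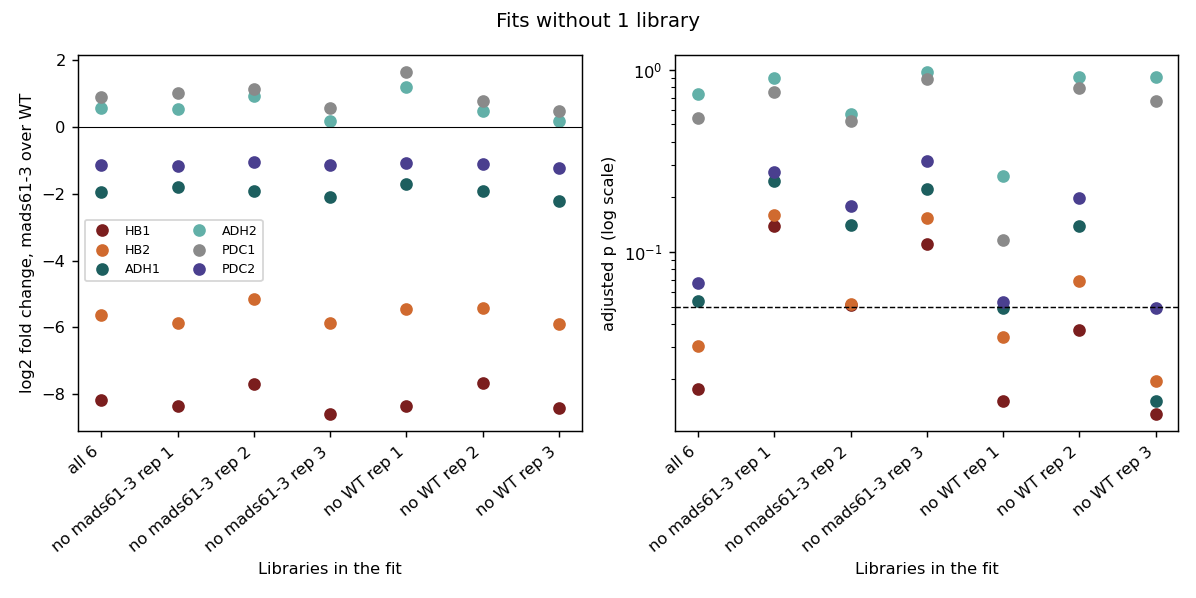
Log2 fold changes of mads61-3 over WT (left) and edgeR adjusted p (right, log axis, dashed line at 0.05) of the 6 genes with all libraries and with each library left out in turn. Each gene keeps its sign in every fit, and the adjusted p of HB1 and HB2 is above 0.05 without any 1 mads61-3 library.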

How the data were processed

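RNA was sequenced from roots of 3 mads61-3 and 3 WT samples, grouped by their titles. The labels do not say that replicates came from separate plants, and p-values then reflect sample spread alone, which may be technical. The deposited read counts are whole numbers per feature, not normalised, and the deposited FPKM were scaled by the authors to length and depth. Per the submitters' processing notes, HISAT2 2.0.5 and StringTie 1.3.3 were used and the build is named GRCh38, a human build, while the identifiers are rice loci. The sources used here do not give the counter or its strand setting: overlapping or antisense genes cannot be told apart, and chromosomes were read from the locus numbers.

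Counts were tested with edgeR 4.0.16 in R 4.3.3 (quasi-likelihood F-test, two-sided, TMM, robust, minimum count 10, Benjamini-Hochberg over 25531 features), called at an adjusted p under 0.05. Library totals set the precision: 3 counts stood for 0.0875 to 0.131 CPM, which covers counting error only. Intervals of log2 fold changes are at 95%, from SE and the fit's degrees of freedom. Ratios within a pair used log2 of FPKM + 0.1. The script was tested on simulated data. Alternatives used DESeq2 1.42.0 and limma 3.58.1, other scalings, no filter and fits without single libraries.

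The members and lists were chosen with earlier results of these data known. The named-genes rule took the 6 members, OsMADS61, called or else the 2 most abundant genes of each pathway role, the 2 most abundant nitrate reduction genes and the 5 named genes most like each of HB1, HB2 and ADH1. PPDKB, Sub1B, Sub1C, CIPK15, OsNIA1 and OsNIA2 were named after their values were seen, and ADH3 and HB5 were added after the table's names were read. PDC3 was also named outside the named-genes rule. Listed genes were left out where the deposited name differed or was absent, or where the locus was not analysed here.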

Additional observations from a re-analysis of the deposited data

How the results depend on the processing

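The signs of the 6 genes held in every alternative run on single genes, and those of the 3 pair ratios too. The sign turned only where copies were summed, for ADH1 with ADH2 (0.47) and PDC2 with PDC1 (0.49). ADH2 far outweighed ADH1 in every library, so that sum followed ADH2. PDC1 was the more abundant copy of its pair except in WT replicate 3, where PDC2 made up 56.6% of the summed FPKM. DESeq2 called 2486 genes against 319 in edgeR, with 5 against 0 of the pathway list. Limma called 523 on log2(FPKM + 1) and 624 on log2(FPKM + 0.1). ADH1 passed in DESeq2 (-1.94), in limma on FPKM (-1.78 and -1.80), without robust estimation (-1.96) and with total-count scaling (-1.86, chosen after seeing the data). PDC2 passed in DESeq2 (-1.13) and in limma on FPKM (-1.04 and -1.05). The causes were not tested. Without WT replicate 3 and mads61-3 replicate 2 together, also chosen after seeing the data, edgeR called 1 pathway gene.

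With 1 library left out, edgeR called 0 to 724 genes and 0 to 2 of the pathway list. Over these fits log2 fold changes ran from -8.60 to -7.66 for HB1, -5.91 to -5.16 for HB2, -2.22 to -1.70 for ADH1, -1.22 to -1.05 for PDC2, 0.18 to 1.199 for ADH2 and 0.48 to 1.66 for PDC1. The labels do not say whether equal replicate numbers mark paired samples. Deviations of same-numbered libraries from their group means correlated at 0.112, 0.193 and -0.177. Those of differently numbered libraries ran from -0.273 to 0.242, so these values cannot decide whether samples were paired. With the replicate number as a block edgeR called 81 genes, and HB1 (-8.21, adjusted p = 0.0616) and HB2 (-5.77, adjusted p = 0.0701) did not pass. The pair ratios under the block had an exact p of 0.25 by sign flips, the smallest that 3 pairs allow. Low counts limit what can be said of HB3, HB5 and PDC3.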
